A study of Mus musculus with 6 samples.

Results

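The cytosolic ribosomal protein genes were taken by name from the count table: rows that GENCODE M21 annotates as protein-coding and whose symbol begins with Rpl, Rps or Rplp followed by a digit, with the S6 kinases (symbols beginning with Rps6k) left out. This gave 91 of 55335 rows, and 87 of the 91 passed the filter on low counts, which left 15687 genes to test. The samples were bone marrow-derived macrophages (BMDMs) of C57BL/6 mice, and the library names mark all of them as wild type (WT). The cells were grown for 6 d in medium with L929-conditioned medium and then given PBS (3 libraries) or LPS (3 libraries) for 1 h. LPS is the bacterial cell wall component that activates macrophages. Total RNA was sequenced. The RNA-seq labels give no LPS dose and do not say whether the 3 libraries of a group came from separate mice, so the p-values measure the spread between these libraries, which may be technical. The labels number the libraries of each group by batch 1, 2 and 3.

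Ribosomal proteins make up the large (Rpl) and small (Rps) subunits of the cytosolic ribosome together with ribosomal RNA, and Rplp0, Rplp1 and Rplp2 form the stalk at which translation factors dock. Their mRNAs are abundant and long-lived, and most of them begin with a terminal oligopyrimidine (TOP) tract, a run of C and T at the first transcribed base. Through this tract mTOR signalling and the RNA-binding protein LARP1 control mainly the translation of these mRNAs. Total RNA-seq measures the amount of mRNA and not its translation, and in bulk samples fewer cells of a type cannot be told apart from less RNA per cell.

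The tract can be seen at some of the annotated starts. RefSeq promoters (GRCm38.p6) were found for 65 of the 91 genes, and a window of 15 bases on either side of the start is shown for 9 of them, lower case, with the longest run of at least 5 C or T in capitals. Rps6, Rpl28, Rpl38, Rplp2 and Rps27 show starts with a long run, Rps27rt and Rps27l for the relatives of Rps27, and Rpl7l1 and Rps19bp1 for the 2 genes called lower under TMM (below). The windows lie at chr4:86857353-86857382 (minus strand), chr7:4792950-4792979 (plus), chr11:114668565-114668594 (plus), chr7:141447636-141447665 (plus), chr3:90213634-90213663 (minus), chr9:114982725-114982754 (minus), chr9:66946071-66946100 (plus), chr17:46782642-46782671 (minus) and chr15:80264292-80264321 (minus), in the order printed.
Rps6: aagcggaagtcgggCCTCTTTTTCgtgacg
Rpl28: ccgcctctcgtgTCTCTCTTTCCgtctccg
Rpl38: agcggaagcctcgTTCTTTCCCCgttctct
Rplp2: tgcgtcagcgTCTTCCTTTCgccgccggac
Rps27: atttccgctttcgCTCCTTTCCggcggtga
Rps27rt: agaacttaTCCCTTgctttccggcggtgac
Rps27l: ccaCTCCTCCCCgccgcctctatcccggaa
Rpl7l1: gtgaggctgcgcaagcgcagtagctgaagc
Rps19bp1: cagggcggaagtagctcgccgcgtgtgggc
Rps6, Rpl28, Rpl38, Rplp2 and Rps27 hold runs of 9 to 11 bases at the start, which are longer than in most members. Rpl7l1 and Rps19bp1 hold no run of 5 in this window, which they share with other members. A run of at least 8 C or T was present in 25 of the 65 windows (38.5%), against 11.9% of the same windows at 27025 annotated starts, and a run of at least 5 in 45 (69.2%), against 47.5%. In the whole 300 bases around the start (250 before and 50 after), the letters CCGGAA, searched on both strands, occurred in 32 of the 65 genes (49.2%) and in 15.2% of all starts, and AAGATGGC, also on both strands, in 5 (7.69%) and 2.88%. Of the other letters searched, GGGCGG occurred in 39 (60.0%) and in 35.9% of all starts, and TATAAA in 6 (9.23%) and 14.2%. These matches describe the letters in the windows and were not tested as binding sites.

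The name rule is not quite the ribosome. It takes in Rps19bp1, whose product binds the ribosomal protein Rps19 and is not a subunit, and the gene copies Rps27rt, Rpl36a-ps1, Rpl9-ps1, Rpl9-ps6, Rpl10-ps3, Rps12-ps3 and Rpl36-ps4, which the annotation calls protein-coding. Among the genes it leaves out are Rpsa, Fau and Rack1, which encode subunit proteins or, for Rack1, a scaffold bound to the small subunit. By name, 54 members belonged to the large subunit, 33 to the small subunit and 3 to the stalk. Of the 4 members not tested, Rpl10l and Rpl36-ps4 had 0 counts in all 6 libraries, Rpl3l had 1, 0 and 5 counts after PBS and 0, 2 and 1 after LPS, and Rpl9-ps1 had 0, 2 and 2 counts after PBS and 5, 7 and 2 after LPS. The 91 genes lay on 20 chromosomes, with at most 14 on one of them (chromosome 7).

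Library totals ranged from 37787611 to 41516330 counts. Tnf, the check of the LPS label, had 1007, 935 and 872 counts after PBS and 78981, 75054 and 76710 after LPS. In every library the summed level of the 7 macrophage markers was 29548 to 32638 CPM, which here are counts over the TMM-scaled library size. Most of this was Lyz2 (22760 to 24500 CPM). Under TMM Fcgr1 was lower after LPS (log2 fold change -0.48), Mertk was at -0.04, and Csf1r, Adgre1, Cd68, Itgam and Lyz2 were higher (0.06 to 0.35). The 2 T cell, 2 B cell and 2 erythroid markers each summed to under 1 CPM. The 2 fibroblast markers summed to 3.67 to 4.14 CPM after PBS and 3.70 to 5.51 after LPS. The 3 neutrophil markers summed to 12.8 to 15.2 CPM after PBS and 18.2 to 18.8 after LPS, with Ly6g at 0 counts in 4 of the 6 libraries, and the 2 dendritic cell markers to 0.797 to 1.06 CPM after PBS and 2.88 to 4.02 after LPS. The part of these cells in the results was not tested.

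The ribosomal protein genes took a smaller share of all counts after LPS than after PBS. They held 3.03%, 3.08% and 2.99% of all gene counts in the 3 PBS libraries and 2.63%, 2.70% and 2.62% in the 3 LPS libraries. The groups did not overlap, and the mean share after LPS (2.65% ± 0.0443, SD, n = 3) was 0.874 of that after PBS (3.03% ± 0.0437, n = 3). The share has the rest of the library as its denominator, and the genes higher in LPS past the study's criteria (a log2 fold change beyond 1 in size, with its adjusted p under 0.05) took 4.40% ± 0.106 of all counts after PBS and 19.4% ± 0.0648 after LPS (SD, n = 3 each). That set was chosen by its rise in these same libraries, so the rise follows from the choice. Its part in the lower share was not tested. After scaling by TMM, which matches the libraries on the trimmed mean of their log ratios over all tested genes, the summed level of the ribosomal protein genes was instead higher after LPS. It was 26393, 26714 and 26015 CPM after PBS and 30203, 31263 and 30048 CPM after LPS, again without overlap, a ratio of means of 1.16. The direction of the whole family therefore depended on the scaling, and both values are plotted by library.

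**Figure D1:**
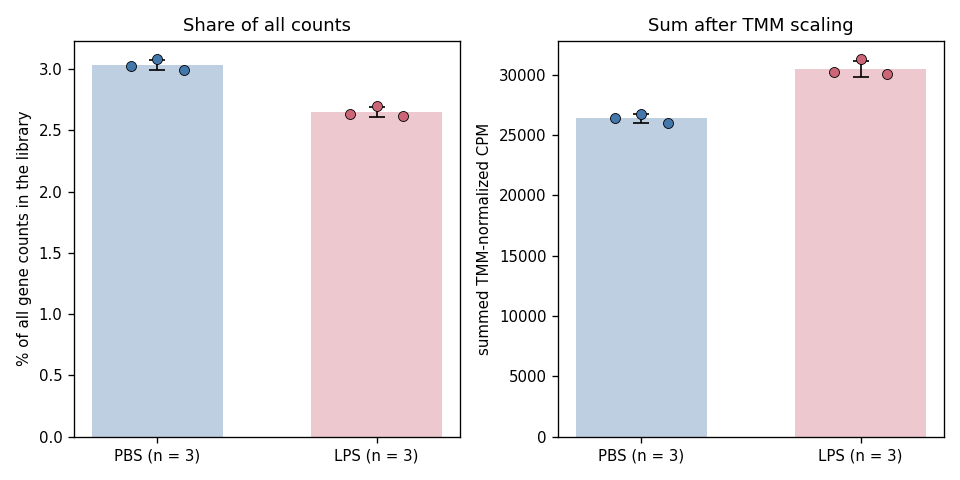
Share of all gene counts (left, %) and summed TMM-normalized CPM (right) of the 91 ribosomal protein genes in each library; bars are group means, error bars ±1 SD, points the 3 libraries of a group. The share is lower in all LPS libraries (2.62 to 2.70%) than in all PBS libraries (2.99 to 3.08%), while the TMM-scaled sum is higher (30048 to 31263 against 26015 to 26714 CPM).

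Under TMM scaling, 74 of the 87 tested genes had an adjusted p under 0.05 and were higher in LPS in edgeR's quasi-likelihood test. This held for 32.9% of all tested genes. Of the 87, 2 were lower (34.9% of all tested genes were), and 11 did not pass. Much of the distance from all tested genes was shared by other genes of high level. Of the 1905 other tested genes with a mean of at least 100 CPM, 68.98% were higher and 14.96% lower. Of the 73 ribosomal protein genes at that level, 70 were higher and 0 lower. Under library size alone the count over the 87 genes turned round: 1 gene was higher and 78 were lower, against 65.9% of all tested genes lower. The shifts were small. Only Rpl24 passed the study's criteria given above, which 20.9% of all tested genes passed. Of the 87 genes, 74 had a log2 fold change between 0.1 and 0.4 under TMM, and the median was 0.21 against -0.01 for all tested genes. In 69 genes every LPS library was above every PBS library in TMM-normalized CPM, where 33.9% of all tested genes showed this, in 2 every LPS library was below, and in 16 the groups overlapped. Between libraries of the same batch number, the median log2 difference of the members was 0.19, 0.21 and 0.21 in the pairs of batches 1, 2 and 3.

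**Figure D2:**
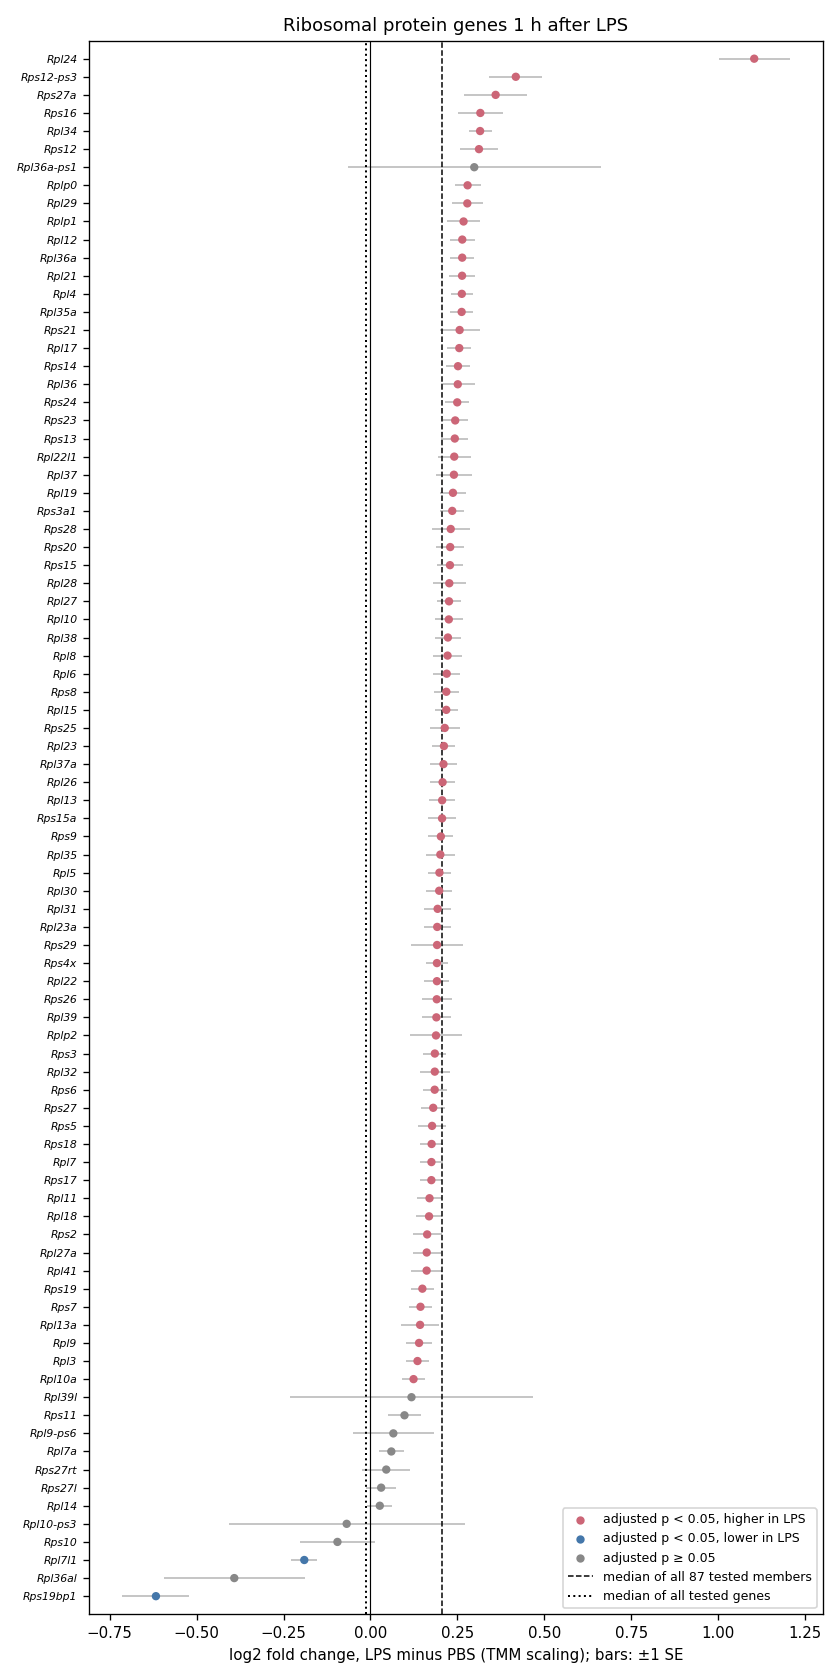
Log2 fold change (LPS minus PBS, TMM scaling) of 86 of the 87 tested ribosomal protein genes, sorted; bars are ±1 SE, colours give the call at an adjusted p of 0.05, the dashed line is the median of the 87 (0.21) and the dotted line that of all 15687 tested genes (-0.01). Most genes lie in a narrow column around the dashed line, with Rpl24 far above it and Rps19bp1, Rpl36al and Rpl7l1 below; under library size alone the column lies below 0.

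A scaling moves all genes by about the same amount, so the distance between the ribosomal protein genes and the rest does not depend on it. The median of all tested genes was moved to -0.42 by library size alone, -0.16 by upper quartile scaling and -0.25 by TMM computed only on the 1978 genes with a mean of at least 100 CPM, and the ribosomal protein median moved with it, to -0.20, 0.06 and -0.03. The distance was 0.219 under TMM, and over all 21 fits, with other filters, tests and sets of libraries included, it was 0.21 to 0.24. It was no larger than in other genes of high level. The 1905 other tested genes with a mean of at least 100 CPM had a median log2 fold change of 0.21 under TMM, and the 73 ribosomal protein genes at that level had 0.21 as well. With the libraries scaled on the 1978 high-level genes, 4 members were higher, 14 were lower and 69 did not pass, where 73.3% of all tested genes passed in either direction. The 1978 genes include 73 of the members, and their median under TMM (0.21) was that of the members. This scaling therefore puts the members near 0, and the number of members called is no further test of them.

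**Figure D3:**
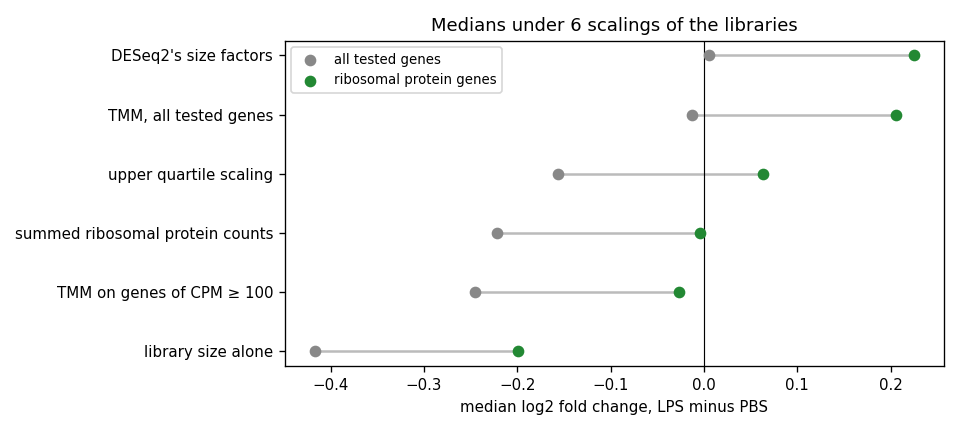
Median log2 fold change (LPS minus PBS) of the 87 ribosomal protein genes (green) and of all tested genes (grey) under 6 scalings of the libraries. The green median runs from -0.20 under library size alone to 0.23 under DESeq2's size factors and changes sign between scalings, while the gap to the grey median is close to 0.22 in each, since a scaling moves all genes alike.

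The genes moved as a block. Under TMM the middle 50% of the ribosomal protein genes spanned 0.0740 on the log2 scale (from 0.17 to 0.24), compared with 0.738 for all tested genes. At a mean of at least 100 CPM the span was 0.0591 for the 73 ribosomal protein genes and 0.519 for the 1905 others. The large and small subunits had medians of 0.21 (50 genes, from -0.39 to 1.10) and 0.20 (33 genes, from -0.09 to 0.42). In the large subunit 42 of the 50 genes and in the small subunit 29 of the 33 were higher under TMM, a direction that turned round under library size alone. Under TMM these are 84.0% and 87.9%, against 32.9% of all tested genes. Both sets include genes of low level. Of the 73 ribosomal protein genes with a mean of at least 100 CPM, 95.9% were higher, against 69.0% of the 1905 others at that level. Across the 87 genes, the log2 fold change under TMM had a Pearson correlation of 0.24 and a Spearman correlation of 0.12 with log2 mean CPM, and of -0.11 and -0.09 with the log2 length of the principal transcript. These are correlations across genes of the same libraries, which are not independent replicates.

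To describe the departures from the block, the libraries were scaled to the summed counts of the 91 genes themselves, a scaling chosen after seeing the data. It centres these genes near 0 by construction (median -0.00415 for the tested members, -0.222 for all tested genes). The number of members called beside that of all tested genes is therefore no test of the block. Of the 87 genes, 12 then had an adjusted p under 0.05 in edgeR's test (4 higher and 8 lower than the block), where 71.3% of all tested genes did. The higher genes included Rpl24, Rps12-ps3 and Rpl34, and the 8 were Rps19bp1, Rpl36al, Rpl7l1, Rps10, Rpl14, Rps27l, Rpl7a and Rpl10a. The log2 differences from the block were between 0.11 and 0.90 for the former and between -0.83 and -0.09 for the latter.

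Rpl24, a protein of the large subunit, had the largest change. Its counts were 137, 133 and 125 after PBS and 215, 202 and 196 after LPS, so that the LPS libraries were higher even before scaling. In TMM-normalized CPM it had 2.88, 2.94 and 2.71 after PBS and 6.41, 6.19 and 5.76 after LPS. The log2 fold change was 1.10 (SE 0.102, adjusted p = 2.57e-08, edgeR). It stayed higher under every scaling tried, but missed a log2 fold change of 1 under library size alone (0.70), upper quartile scaling (0.96), the summed counts of the members (0.90) and TMM on the high-level genes (0.87). The level itself was very low for a ribosomal protein gene. On GRCm38, Rpl24 (chr16:55966275-55971435, plus strand) shares 484 of the 677 bases of its principal transcript (71.5%) with exons of Gm28037 on the same strand, which was listed at 0 counts in all 6 libraries.

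The same arrangement was found at 3 other members, all of low level. Rps10, a small subunit protein (chr17:27630418-27636669, minus strand), shares 475 of 887 bases with RPS10-NUDT3, which was at 0 counts in every library, and had 3.80, 3.96 and 3.55 CPM after PBS and 3.70, 3.40 and 3.50 after LPS. Rpl13a, a large subunit protein also known for silencing inflammatory mRNAs once it is released from the ribosome (chr7:45125558-45128761, minus strand), shares 621 of 1047 bases with Gm45713, at 0 counts in every library, and had 25.4, 23.5 and 23.4 CPM after PBS and 25.0, 27.9 and 27.1 after LPS. Rpl36al, an intronless relative of Rpl36a (chr12:69182731-69184083, minus strand), shares 332 of 1276 bases with Gm49383, which had at most 5 counts, and had 1.66, 1.13 and 1.60 CPM after PBS and 0.924, 1.10 and 1.32 after LPS. In all 3 the groups overlapped.

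Rps10 (log2 fold change -0.09, SE 0.108) and Rpl36al (-0.39, SE 0.203) did not pass under TMM (adjusted p = 0.454 and 0.0981, edgeR). Both were negative under every scaling tried. Under library size alone both passed (-0.50 and -0.80, adjusted p = 0.000409 and 0.00166, edgeR), where 65.9% of all tested genes were lower. Both also passed under TMM on the high-level genes (-0.33 and -0.62, adjusted p = 0.0116 and 0.0107, edgeR). Under upper quartile scaling only Rpl36al passed (-0.53, adjusted p = 0.0264, edgeR). With the counts of its pseudogene rows added, Rps10 turned round and passed (0.15, SE 0.0369, adjusted p = 0.00166, edgeR). Rpl13a passed narrowly at 0.14 (SE 0.0549, adjusted p = 0.029). Rpl13a no longer passed without PBS replicate 2 or 3 or LPS replicate 2 or 3, with adjusted p from 0.0822 to 0.12, and Rpl36al passed without PBS replicate 2 (-0.54, adjusted p = 0.0245). How reads in shared exons or in exons with near-identical copies elsewhere were counted was not stated, and its part in these levels and changes was not tested. Without the 4 members that share exons in this way, the median of the remaining 83 tested genes was 0.21, and 0 of them passed the study's criteria. Of those 83, 72 were higher and 2 lower at an adjusted p under 0.05 in edgeR's test (86.75% and 2.41%, against 32.9% and 34.9% of all tested genes). Among the 1905 other tested genes with a mean of at least 100 CPM, a level that some of the 83 did not reach, 68.98% were higher and 14.96% lower.

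**Figure D4:**
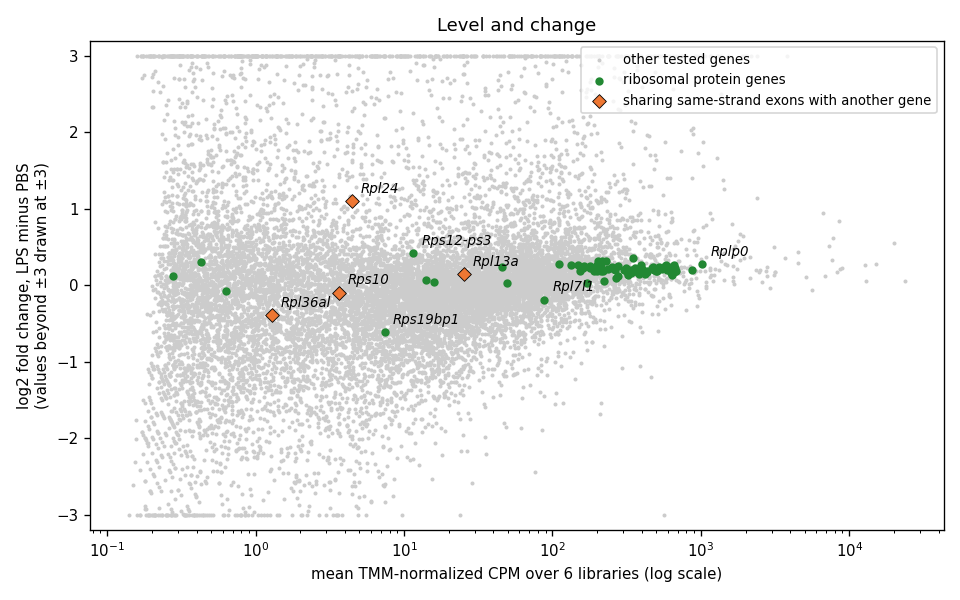
Log2 fold change (LPS minus PBS, TMM scaling; values beyond ±3 are drawn at ±3) against mean TMM-normalized CPM (log scale) for tested genes, with 86 of the 87 tested ribosomal protein genes marked, in green or, for the 4 that share same-strand exons with another gene, as orange diamonds. Most ribosomal protein genes lie at or above 100 CPM within a narrow band of fold change; the 4 diamonds all lie below 30 CPM, and Rpl24 is the one ribosomal protein gene above a log2 fold change of 1.

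Among the members with at least 50 counts per library on average, the next highest under TMM included Rps12-ps3, Rps27a and Rps16. Rps27a, which encodes a fusion of ubiquitin and a small subunit protein, had 301.5, 259.8 and 363 CPM after PBS and 352, 449 and 384 after LPS. The groups overlapped, its log2 fold change was 0.36 (SE 0.0897, adjusted p = 0.00178, edgeR), and it was -0.05 under library size alone. Rps16 of the small subunit was at 0.32 (-0.09 under library size alone), with 162 to 205 CPM after PBS and 207.5 to 243 after LPS.

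The genes called lower under TMM were Rps19bp1 and Rpl7l1, and they fell under every scaling tried. Rps19bp1 had 395, 413 and 437 counts after PBS and 220, 168 and 198 after LPS, and 8.30, 9.14 and 9.47 against 6.56, 5.15 and 5.82 CPM. Its log2 fold change was -0.62 (SE 0.0964, adjusted p = 1.94e-05, edgeR). Rpl7l1, a relative of Rpl7 that is known as a factor in assembly of the large subunit, had 97.5, 91.3 and 93.3 CPM after PBS and 82.5, 80.2 and 84.7 after LPS, a log2 fold change of -0.19 (SE 0.0374, adjusted p = 0.000214, edgeR). Neither overlapped between the groups. Rpl14 of the large subunit was the fifth lowest among the members with at least 50 counts per library on average, with 169.9, 176 and 166 CPM after PBS and 180.3, 173 and 168 after LPS (0.03, SE 0.0356, adjusted p = 0.521, edgeR).

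Several ribosomal proteins have a second gene, and the ratio of second gene to partner within a library needs no scaling between libraries. Ratios were tested for 6 pairs by a two-sided exact permutation test on the log2 ratios, which cannot give a p below 0.1 with 3 libraries a group. Counts of Rpl7l1 were 15.5%, 15.1% and 14.9% of those of Rpl7 after PBS and 11.9%, 11.5% and 11.95% after LPS, without overlap (exact p = 0.1, 0.3 after adjustment over the 6 pairs). Counts of Rps27l, a p53 target and close relative of Rps27, were 14.7%, 14.4% and 14.5% of those of Rps27 after PBS and 13.4%, 12.7% and 13.0% after LPS, also without overlap (exact p = 0.1, adjusted 0.3). Rps27l itself had 47.4, 49.3 and 49.8 CPM after PBS and 52.7, 48.4 and 48.6 after LPS (0.03, SE 0.0434, adjusted p = 0.548, edgeR), while Rps27 had 324, 343 and 344 CPM after PBS and 393, 380.1 and 373 after LPS (0.18, SE 0.0352, adjusted p = 0.000204, edgeR).

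The other pairs overlapped between groups. Rpl22l1, which can take the place of Rpl22 in the large subunit, stood at 23.5% ± 1.15 of Rpl22 after PBS and 24.3% ± 2.05 after LPS (SD, n = 3 each, exact p = 0.6). Rpl39l, a relative of Rpl39 best known from testis, stood at 0.186% ± 0.00388 and 0.178% ± 0.0316 of Rpl39 (exact p = 0.8), with 8 to 13 counts in any library. Rpl36al stood at 1.09% ± 0.243 and 0.691% ± 0.126 of Rpl36a (exact p = 0.2). Rps27rt stood at 4.69% ± 0.411 and 4.26% ± 0.222 of Rps27 (exact p = 0.2), and the printed starts of these 2 genes end in nearly the same letters. Of the partners, Rpl22 and Rpl39 had log2 fold changes of 0.19 each, Rpl36a of 0.26, Rpl7 and Rpl3 of 0.18 and 0.14, and Rpl10 and Rps4x of 0.23 and 0.19, all with an adjusted p under 0.05 under TMM and all negative under library size alone. Rps4l, a copy that the annotation does not call protein-coding, had 0.14 (SE 0.113, adjusted p = 0.296, edgeR).

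**Figure D5:**
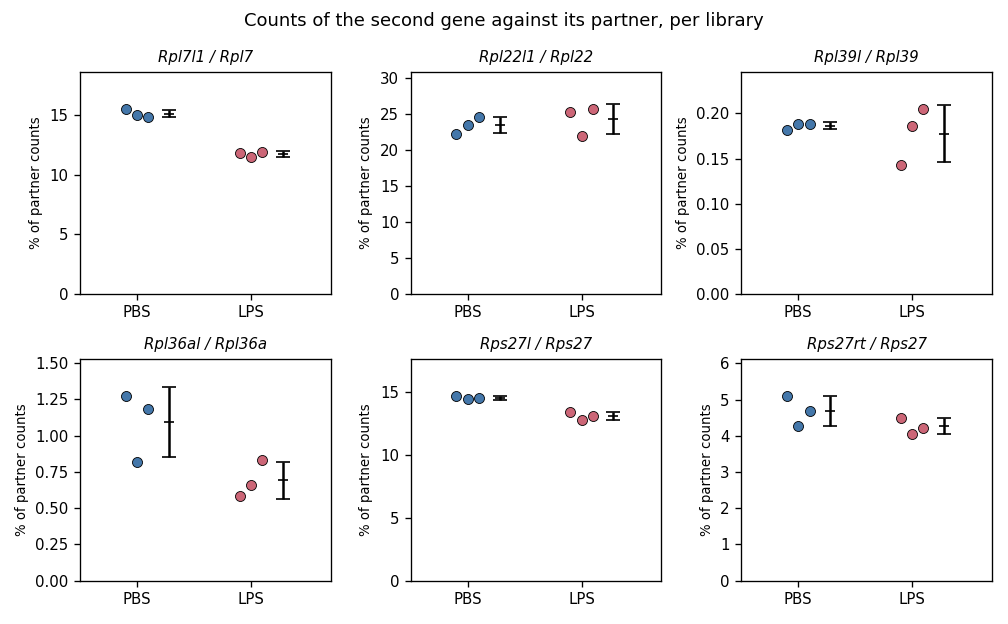
Counts of the second gene as a percentage of the counts of its partner in each library for 6 pairs; points are libraries, black marks the group mean ± 1 SD (n = 3), and each axis starts at 0. The PBS and LPS libraries are apart for Rpl7l1 / Rpl7 (14.9 to 15.5% against 11.5 to 11.95%) and Rps27l / Rps27 (14.4 to 14.7% against 12.7 to 13.4%) and overlap in the other 4 pairs.

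Of the stalk genes, Rplp0 and Rplp1 were among the most abundant members and Rplp2 was not. Rplp0, often used as a reference gene in RT-qPCR, had 969.7, 922 and 879 CPM after PBS and 1105, 1139 and 1119 after LPS, without overlap (0.28, SE 0.0376, adjusted p = 3.48e-06, edgeR), but was at -0.13 under library size alone. Rplp1 had 515, 576 and 507 CPM after PBS and 634, 683 and 607 after LPS (0.27, SE 0.0487, adjusted p = 9.92e-05, edgeR). Rplp2 had 178, 228 and 188 CPM after PBS and 226, 249 and 202 after LPS, and here the groups overlapped (0.19, SE 0.0749, adjusted p = 0.034, edgeR).

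In both groups batch 2 was the highest library for Rplp2 and Rplp1, and so it was for Rps29, a small zinc-binding protein of the small subunit, with 437, 550.3 and 438 CPM after PBS and 501, 608 and 518 after LPS (0.19, SE 0.0754, adjusted p = 0.0325, edgeR). With the batch number as a block, the SE fell to 0.0346 for Rplp2 and 0.0301 for Rps29 and the adjusted p to 3.48e-05 and 4.46e-06, at the same log2 fold change of 0.19. By contrast, both lost their call in DESeq2 (0.21 each, adjusted p = 0.197 and 0.198), with 10 counts required in every library (0.0579 and 0.0547, edgeR), without PBS replicate 1 or 3 (0.131 to 0.184) and without LPS replicate 2 (0.209 and 0.233), and Rplp2 also without LPS replicate 1 (0.0955). The log2 fold change of Rplp2 ran from 0.11 without LPS replicate 2 to 0.30 without PBS replicate 2, and that of Rps29 from 0.10 to 0.31 without the same libraries.

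The other proteins with roles known outside the ribosome, or singled out for signalling, stayed within the block. Rpl5 and Rpl11 travel with the smallest large-subunit RNA and can bind the p53 inhibitor Mdm2. Rpl5 had 567, 538 and 546 CPM after PBS and 627, 626 and 641 after LPS (0.20, SE 0.0335), and Rpl11 had 297, 313 and 292 against 338, 348 and 327 (0.17, SE 0.0361). Rps6, the small subunit protein phosphorylated by the S6 kinases, had 354, 333 and 332 CPM after PBS and 377, 392.5 and 389 after LPS (0.18, SE 0.0349). Rps3, a small subunit protein also described as a partner of NF-κB p65, had 635, 620.0 and 617 CPM after PBS and 703, 726 and 699 after LPS (0.19, SE 0.0331). Rps19, the protein most often mutated in Diamond-Blackfan anemia, had 354, 363 and 368 against 412, 392 and 399 (0.15, SE 0.0332). In these 5 genes every LPS library was above every PBS library under TMM and the adjusted p was at most 0.00068 (edgeR), but all 5 were negative under library size alone (-0.26 to -0.21).

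Levels were compared between genes as TMM-normalized CPM per kb, over the union of annotated exons. After PBS, Rplp1 was highest at 1067 ± 75.7, followed by Rps29 at 686 ± 93.7 and Rps3a1 of the small subunit at 614 ± 16.1 CPM per kb (SD, n = 3). Rplp0 was the fourth at 557 ± 27.4. The order among the first depended on the length used: over the principal transcript, Rps29 led at 1219 ± 167, Rplp1 was at 1067 ± 75.7, and Rpl41 and Rps27 followed at 1021 ± 48.8 and 977 ± 33.1, with Rps29 and Rplp1 apart by less than the SD of Rps29. The lowest tested members, Rpl39l, Rpl10-ps3 and Rpl36a-ps1, had 0.321 ± 0.0226, 0.843 ± 0.0463 and 0.846 ± 0.252 CPM per kb of exon. None of these 3 passed the test (log2 fold changes 0.12, -0.07 and 0.30; adjusted p = 0.779, 0.870 and 0.485, edgeR), and Rpl10-ps3 passed without LPS replicate 3 (-0.78, adjusted p = 0.0437).

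Copies of ribosomal protein genes share sequence with their source, so that their counts are uncertain. Rps12-ps3 (chr19:59322290-59322783, plus strand), a single-exon copy of Rps12, had 10.9, 9.23 and 9.60 CPM after PBS and 13.5, 13.6 and 12.6 after LPS (0.42, SE 0.0765, adjusted p = 0.000106, edgeR). Rps12 itself had 199, 219 and 195 CPM after PBS and 248, 281 and 232 after LPS (0.31). Beside the members, 285 rows that the annotation types as pseudogenes carry a member's name. They summed to 24892 to 26390 counts in the PBS libraries and 21125 to 21654 in the LPS libraries, against 1200336 to 1256708 and 1013585 to 1022662 for the members. Of these rows 83 were tested, of which 23 were higher and 2 lower under TMM (27.7% and 2.41%, against 32.9% and 34.9% of all tested genes). Their median log2 fold change was 0.19. Under library size alone 2 were higher and 19 lower, with a median of -0.22, where 65.9% of all tested genes were lower.

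Ribosomal protein genes outside the name rule were read from the same fit. Rpsa, Fau and Rack1 were higher under TMM, with log2 fold changes of 0.21, 0.27 and 0.18 (adjusted p at most 0.00015, edgeR), and were negative under library size alone for Rpsa (-0.20), Fau (-0.13) and Rack1 (-0.22). Another 14 mRNAs known for TOP tracts encode elongation and initiation factors and the like. Of these 14, 12 (85.71%) were higher and 0 lower under TMM in edgeR's test, with a median of 0.29. Of all tested genes, 32.9% were higher and 34.9% lower. Of the 1905 non-member tested genes with a mean of at least 100 CPM, 68.98% were higher and 14.96% lower, with a median of 0.21. Some of the 14 did not reach that level. Under library size alone 1 of the 14 was higher and 9 were lower, with a median of -0.12, where 65.9% of all tested genes were lower. With TMM on the high-level genes, 6 were higher and 4 lower, where 73.3% of all tested genes passed in either direction. Under TMM the elongation factors Eef1a1 and Eef2 had 0.33 and 0.35, and Tpt1 had 0.45. Pabpc1, the poly(A)-binding protein, was the highest of the 14 at 0.85, while Eef1g (0.06) and Eef1d (0.08) did not pass.

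The kinases and regulators of TOP mRNAs did not form a block. Of the 8 tested genes whose symbols begin with Rps6k, 4 were higher and 3 lower under TMM, and 2 and 5 under library size alone. Rps6ka2, a ribosomal S6 kinase of the RSK family, was highest at 0.81 and Rps6ka1, of the same family, lowest at -0.47, while Rps6kb1, the main S6 kinase downstream of mTOR, was at -0.12 (adjusted p = 0.0197, edgeR). Of 15 regulators of TOP mRNAs and mTOR, 7 were higher and 4 lower under TMM (46.7% and 26.7%, against 32.9% and 34.9% of all tested genes), and 4 and 10 under library size alone, where 65.9% of all tested genes were lower. Larp1 was at 0.49, Larp4b at 0.77 and the mTOR activator Rheb at 0.77. The mTOR complex subunit Mlst8 was at -1.91, the RNA-binding protein Tia1 at -1.14 and the translation repressor Eif4ebp1 at -0.45.

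Ribosome assembly factors were called about as often in each direction as all tested genes. Of 24 assembly factors, 9 were higher and 8 lower under TMM, and 4 and 17 under library size alone (37.5% higher and 33.3% lower under TMM, against 32.9% and 34.9% of all tested genes), with Rrs1, which brings Rpl5 and Rpl11 into the ribosome precursor, at 1.23 and Nob1, which completes the small subunit RNA, at -0.77. Of 7 chaperones of ribosomal proteins, 3 were higher and 1 was lower under TMM (42.9% and 14.3%), and 1 and 6 under library size alone. Ltv1 was at 0.90 and Tsr2, the chaperone of Rps26, at -0.43 (adjusted p = 0.000311, edgeR). The mitochondrial ribosomal protein genes, which encode the separate ribosome of the mitochondrion, stood on the other side of the median of all genes. Of 77 tested, 3 were higher and 51 lower under TMM (3.90% and 66.2%, against 32.9% and 34.9% of all tested genes). Their median was -0.27 and their middle 50% spanned 0.383, compared with a median of 0.21 and a span of 0.0740 for the cytosolic genes. Under library size alone, where 65.9% of all tested genes were lower, 2 were higher and 74 lower. No test was made between the lists.

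Many members host small RNA genes in their introns, mostly snoRNAs, which guide the chemical modification of ribosomal RNA. Within the span of 31 of the 91 genes, 63 small RNA rows lay on the same strand, counted in introns and annotated exons alike. In 24 members a snoRNA or miRNA row shared annotated exon bases. The 18 rows with enough counts to be tested all lay in introns, with at most 127 counts in a library. Of the 18, 2 were lower and 2 higher under TMM in edgeR's test (11.1% each, against 34.9% lower and 32.9% higher among all tested genes). Both lower rows lay in introns of Rpl3. Snord43 had 119, 104 and 127 counts after PBS and 36, 34 and 35 after LPS (log2 fold change -1.26, SE 0.157), and Snord83b had 49, 74 and 51 against 22, 19 and 24 (-0.95, SE 0.238, adjusted p = 0.00187, edgeR). Rpl3 itself had 613, 602 and 608 CPM after PBS and 663, 678 and 661.5 after LPS (0.14, SE 0.032). The higher rows were Gm26202 in Rpl17 (8, 6 and 9 counts against 10, 14 and 14, adjusted p = 0.00946) and Snora21 in Rpl23 (13, 31 and 23 against 21, 34 and 26, adjusted p = 0.0449, edgeR). The raw counts of Snora21 overlapped between the groups. Reads of the host pre-mRNA and of a snoRNA inside it could not be told apart in these counts.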

How the data were processed

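Total RNA libraries of BMDMs (3 PBS, 3 LPS, 1 h) were analysed from the deposited gene counts. Per the labels and submitters' processing notes, the authors aligned reads with HISAT2 2.1.0, used SAMtools 1.17 and counted with featureCounts 2.0.0 on GRCm38; the counts were deposited without normalization. Annotation release, strand setting and treatment of multi-mapping or overlapping reads are not given in the sources used here. Identifiers were matched to GENCODE M21 without version (55154 of 55335 rows), which gives the coordinates.

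LPS was compared with PBS by edgeR 4.0.16 under R 4.3.3 (filterByExpr, TMM, quasi-likelihood test without a batch term, Benjamini-Hochberg over all 15687 tested genes). SEs come from the F statistic. Totals of 37787611 to 41516330 counts put 3 counts at 0.063 to 0.0919 CPM, a floor that covers counting error only. The SEs also include the spread between libraries that edgeR estimated. On simulated counts for this comparison (15687 genes, 200 changed), edgeR recovered 79 of 100 genes shifted by 0.5 on the log2 scale and 100 of 100 shifted by 1.5. The simulated shifts went up and down equally often and changed few genes, so the choice of scaling was not tested by them. Shifts as small as the members' median of 0.21 were not simulated. Groups, replicate numbers and batches come from the labels, which pair same-numbered libraries; deviations of the pairs correlated at -0.0139, 0.0822 and 0.0387.

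The members and gene lists were chosen with earlier results of these data known. Named were the 5 highest and 5 lowest log2 fold changes among members with a mean of at least 50 counts, the 3 highest and 3 lowest levels per kb, second genes and partners, stalk genes, Rpl5, Rpl11, Rps27a, Rps3, Rps6, Rpl13a, Rps19, Rpsa, Fau, Rack1, members past the criteria, and Tnf. Rpl34, Rpl7a and Rpl10a as departures from the block, Rps12, the snoRNAs, Rpl41 and list examples were chosen after their values were seen. Some genes that the rule names are not reported here. Alternatives used other scalings and filters, DESeq2 1.42.0, limma 3.58.1 (voom), the replicate block, pseudogene counts added, and each library left out. Scaling on high-level genes or on the members' sum, the principal transcript length and the 2 reduced member sets were chosen after seeing the data.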

Additional observations from a re-analysis of the deposited data

How the results depend on the processing

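The direction of the block depended on the scaling. Against 74 genes higher and 2 lower with a median log2 fold change of 0.21 under TMM, library size alone gave 1 higher, 78 lower and a median of -0.20, upper quartile scaling 24, 6 and 0.0632, the summed counts of the members 4, 8 and -0.00415, and TMM on genes of at least 100 CPM 4, 14 and -0.0262; the last 3 left 0 genes past the study's criteria, and under library size alone the 1 gene past them was Rps19bp1 (-1.02) in place of Rpl24 (0.70). The median was 0.23 with DESeq2's size factors and in DESeq2, 0.18 with no filter beyond 1 count, where 2 genes passed the criteria (Rpl9-ps1 beside Rpl24), and 0.19 with 10 counts required in every library. Leaving out 1 library gave 71 to 74 genes higher, 2 to 3 lower, 1 past the criteria and medians from 0.19 to 0.22. With the replicate block, which pairs the batches, 75 were higher and 2 lower, 1 passed the criteria and the median was 0.21; the calls of the named genes were unchanged. The members' share of counts was 3.24% after PBS and 2.85% after LPS with protein-coding genes as denominator, 3.49% and 3.02% without the 10 highest genes, and 3.1% and 2.71% with pseudogene rows added.

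Among the named genes, log2 fold changes that turned round under library size alone were -0.38 for Rpl14, -0.37 for Rps27l, -0.28 for Rpl39l, -0.27 for Rps4l and Rpl3, -0.26 for Rpl13a and Rps19, -0.24 for Rpl11, -0.23 for Rpl7, -0.22 for Rplp2, Rps27, Rpl39, Rack1, Rps3 and Rps6, -0.21 for Rpl5, Rps29, Rpl22 and Rps4x, -0.20 for Rpsa, -0.18 for Rpl10, -0.17 for Rps3a1, -0.16 for Rpl22l1, -0.14 for Rpl36a and Rplp1, -0.13 for Fau and Rplp0, -0.10 for Rpl36a-ps1, -0.09 for Rps16, -0.05 for Rps27a. Under TMM on genes of at least 100 CPM they were -0.21 for Rpl14, -0.20 for Rps27l, -0.11 for Rpl39l, -0.10 for Rps4l and Rpl3, -0.09 for Rpl13a, -0.08 for Rps19, -0.06 for Rpl7 and Rpl11, -0.05 for Rps27, Rps6, Rps3 and Rack1, -0.04 for Rps4x, Rps29, Rpl22, Rplp2 and Rpl39, -0.03 for Rpl5, -0.02 for Rpsa, -0.01 for Rpl10. Under the summed counts of the members they were -0.18 for Rpl14 and Rps27l, -0.09 for Rpl39l, -0.07 for Rps4l, Rpl3 and Rpl13a, -0.06 for Rps19, -0.04 for Rpl11, -0.03 for Rps27, Rpl7, Rack1 and Rps6, -0.02 for Rps29, Rpl39, Rpl22, Rps3, Rplp2 and Rps4x, -0.01 for Rpl5, -0.0009 for Rpsa. Under upper quartile scaling they were -0.12 for Rpl14, -0.11 for Rps27l, -0.02 for Rpl39l, -0.01 for Rps4l and Rpl3. Adding pseudogene counts gave 0.15 for Rps10. With each library left out in turn, the sign was not constant for Rpl14 (-0.003 to 0.05), Rps27l (-0.01 to 0.05), Rpl10-ps3 (-0.78 to 0.21) and Rpl36a-ps1 (-0.04 to 0.62), none of which passed with all 6 libraries. The reversals under other scalings follow from how each sets the level of the libraries; that of Rps10 came with the counts added to it, with which it passed (adjusted p = 0.00166, edgeR), and those with a library left out from the samples kept. Depth limits the members with fewest counts, such as Rpl39l, whose SE was 0.349.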
